A study of Homo sapiens with 10 samples.

Results

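The BCL2 family controls the mitochondrial pathway of apoptosis, and 10 of its genes were followed at gene and transcript level across ovarian cancer cell lines: the anti-apoptotic BCL2, BCL2L1 and MCL1, the effectors BAX and BAK1, the BH3-only genes BAD, BID, BCL2L11 and PMAIP1, and BCL2L13. Members were taken by gene symbol from the deposited transcript annotation, which gave 60 of 99493 transcripts and 10 of 57110 gene identifiers. None of the 10 shared its identifier with another gene. Of the 60 transcripts, 45 reached 1 count in at least 1 library, 13 were estimated above 0 but under 1 count in each library, and 2 were never above 0. Nanopore sequencing of total RNA from 7 established cell lines had been done to benchmark transcript quantification with the Isosceles package. COV362, COV504, SK-OV-3, OVMANA, OVTOKO and OVKATE were each represented by 1 library from the PromethION, a high-throughput nanopore instrument. IGROV-1 had 2 PromethION libraries and 2 from the smaller MinION. The labels list no treatment, and they do not say whether the IGROV-1 replicates came from separate cultures, so p-values measure the spread between these libraries, which may be technical.

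Anti-apoptotic members bind and restrain the effectors, which otherwise form pores in the outer mitochondrial membrane and release cytochrome c. BH3-only members either neutralise the anti-apoptotic proteins or engage the effectors directly. Several members are made as protein forms of different function by alternative splicing, which long reads can assign to whole transcripts.

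Library totals lay between 1729782 and 3666224 counts, of which 990 to 2155 fell on the 10 members, or 513 to 755 counts when a library is scaled to 1000000 counts (CPM). A count of 0 allowed up to 3 counts, which was 0.818 to 1.73 CPM depending on the library. Mitochondrial genes took 13.0% and 15.2% of the IGROV-1 PromethION counts, 5.63% and 6.35% of the MinION counts and 2.82% to 4.54% in the other lines. Epithelial markers (7 genes) summed to 569 to 9741 CPM and PAX8, a transcription factor of the Müllerian epithelium, was present in each library, but IGROV-1 held no KRT7 or CDH1 counts and at most 1.54 CPM of EPCAM. Leukocyte markers (4 of 5 measurable) summed to 0 to 12.4 CPM, endothelial markers (3) to 0.534 to 25.8 CPM and fibroblast markers (5) to 0.578 to 434 CPM. The fibroblast sum was led by COL1A2 in COV362 (429 CPM) and COL1A1 in SK-OV-3 (219 CPM), while DCN stayed at or below 0.578 CPM throughout. The part of these differences in the results below was not tested, except that all calls were repeated without mitochondrial genes.

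The splice forms discussed below differ at 3 places, whose sequences were read from GENCODE 29 transcripts on GRCh38. In BCL2L1, an inner splice donor within the coding part of an exon removes 189 nt (63 residues) at chr20:31721655-31721843 on the minus strand. Transcript BCL2L1-201 keeps this segment and encodes the 233-residue anti-apoptotic Bcl-xL, whereas BCL2L1-202 lacks it and encodes the 170-residue pro-apoptotic Bcl-xS. The segment is shown with its first 2 bases, the inner donor, in capitals, followed by both junctions with the first bases of the last exon in capitals.
BCL2L1 segment: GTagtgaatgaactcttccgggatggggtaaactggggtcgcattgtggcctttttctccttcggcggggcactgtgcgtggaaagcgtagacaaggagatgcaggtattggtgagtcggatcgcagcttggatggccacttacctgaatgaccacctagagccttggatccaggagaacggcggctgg
BCL2L1-201 junction: gagaacggcggctggGATACTTTTGTGGAA
BCL2L1-202 junction: cagagctttgaacagGATACTTTTGTGGAA

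In MCL1, transcript MCL1-202 encodes the full 350-residue protein and MCL1-204 lacks 459 nt of the coding part of exon 1 (chr1:150578964-150579422, minus strand), leaving 197 residues in the same frame. The missing stretch is 70.2% G and C, against 61.05% for the whole MCL1-202 coding sequence, and it begins with GC and ends with AG. Its edges are shown with bases of the missing stretch in capitals, and the MCL1-204 junction with the bases 3′ of the join in capitals.
MCL1 5′ edge: ggagggcgacttttgGCTACGGAGAAGGAG
MCL1 3′ edge: TACCTTCGGGAGCAGgccaccggcgccaag
MCL1-204 junction: ggagggcgacttttgGCCACCGGCGCCAAG

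In BAX, BAX-202 encodes the 192-residue alpha form, and BAX-201 reads through the last intron of BAX-202 (617 nt, chr19:48960915-48961531, plus strand) and encodes the 218-residue beta form. Capitals mark the last exon in the first sequence and the intron in the second.
BAX-202 junction: gaccagggtggttggGACGGCCTCCTCTCC
BAX-201 read-through: gaccagggtggttggGTGAGACTCCTCAAG

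Among the 9 members with counts in each line, the pro-apoptotic PMAIP1 and BAX varied most in CPM and the anti-apoptotic MCL1 and the atypical BCL2L13 least. PMAIP1 was 15.7-fold higher in SK-OV-3 than in OVKATE (95% counting interval 9.97 to 26.0) and BAX 8.96-fold higher in OVMANA than in COV504 (6.40 to 12.9). The same ratio of highest to lowest line was 5.88 for BCL2L11, 4.65 for BID, 3.77 for BAD, 3.15 for BAK1, 2.90 for BCL2L1, 2.16 for MCL1 and 2.01 for BCL2L13. The 9 members with a mean of 10 CPM or more had a median range of 1.89 in log2(CPM + 1) over the 7 lines, against 1.84 over 8813 genes at that level (quartiles 1.34 and 2.73). IGROV-1 enters these ranges as its PromethION mean. CPM values are not divided by length, so they are compared between lines and not between genes. In bulk RNA, fewer cells of a type and less RNA per cell cannot be told apart.

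**Figure D1:**
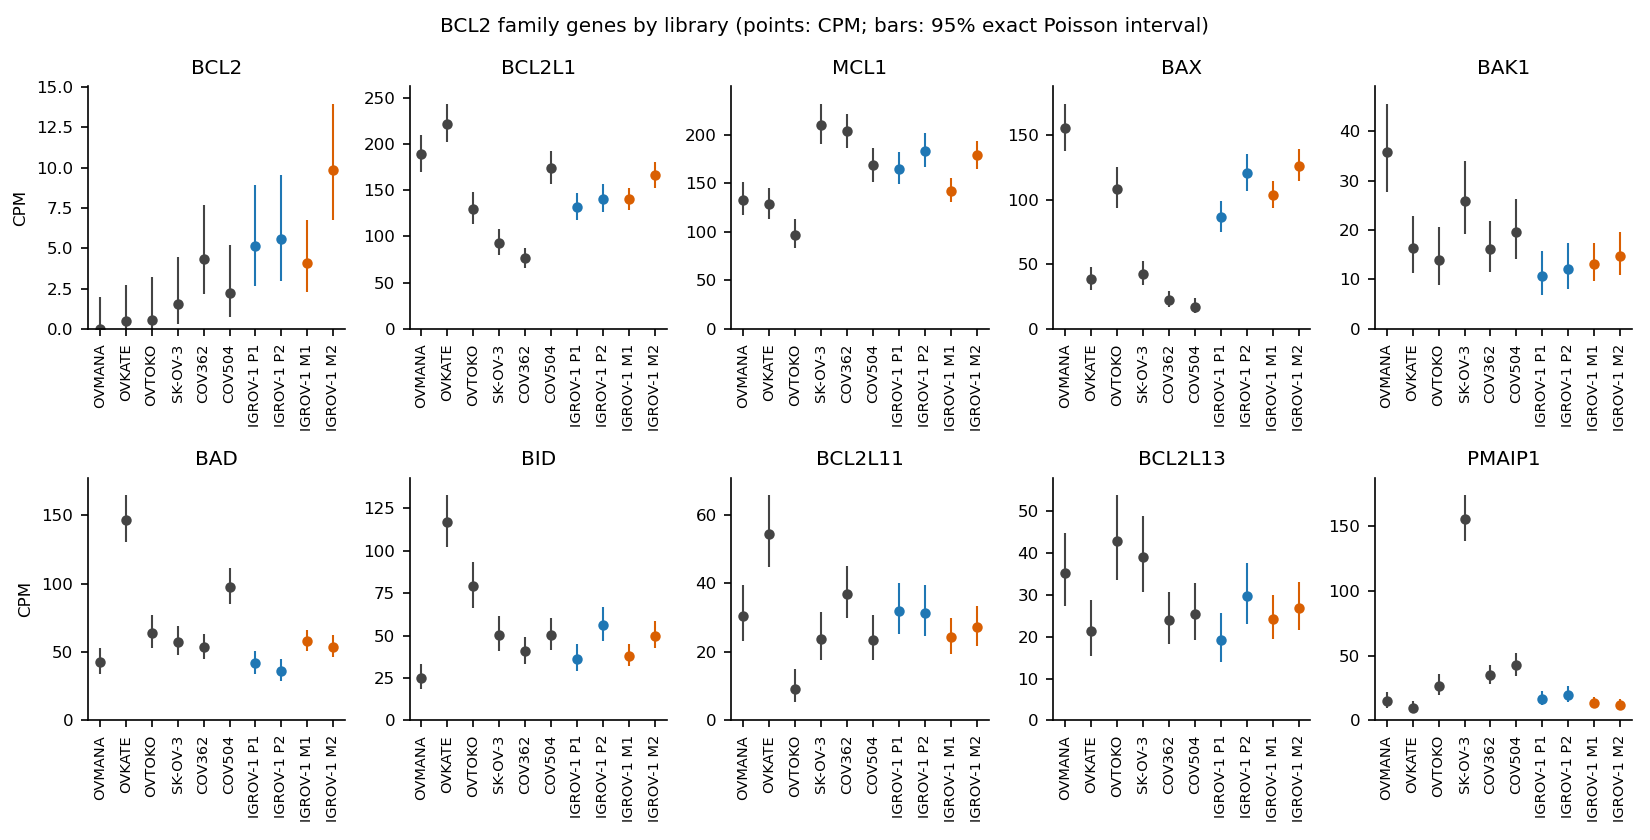
CPM of each of the 10 BCL2 family genes (vertical axis, starting at 0) in each of 10 libraries (horizontal axis), with 95% exact Poisson intervals as bars; blue points are IGROV-1 PromethION (P) and orange points IGROV-1 MinION (M) replicates. PMAIP1 stands out in SK-OV-3 at 155 CPM, and BAX lies between 86.7 and 155 CPM in OVMANA, OVTOKO and IGROV-1 against 17.4 to 42.5 CPM elsewhere.

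BCL2, the founding anti-apoptotic member, was scarce throughout. It had 0 CPM in OVMANA, 0.495 in OVKATE, 0.578 in OVTOKO, 1.52 in SK-OV-3, 4.31 in COV362 and 2.22 in COV504, and 5.13 and 5.58 in the IGROV-1 PromethION and 4.09 and 9.89 in the MinION libraries. OVMANA, OVKATE and OVTOKO held at most 1 count each, and no 2 neighbouring lines in the order of levels were separated by their counting intervals. Set against the floor of 3 counts per library, BCL2 was at least 3.34-fold higher in IGROV-1 than in OVMANA. The ratio of IGROV-1 to OVKATE was 10.8 with a counting interval of 1.77 to 444. BCL2 was called lower than IGROV-1 in OVMANA (edgeR adjusted p = 0.0315) and OVKATE (edgeR adjusted p = 0.0298), and both calls were lost with DESeq2 and with no expression filter.

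BCL2L1 was highest in OVKATE, OVMANA and COV504. It reached 222 CPM in OVKATE, 189 in OVMANA, 174 in COV504, 130.1 in OVTOKO, 93.2 in SK-OV-3 and 76.4 in COV362. The IGROV-1 libraries gave 132 and 141 CPM on the PromethION and 139.9 and 166 on the MinION. Neighbours among the first 3 lines were not separated, though in CPM OVKATE lay above COV504 without overlap of their intervals. COV504 was separated from IGROV-1 PromethION and OVTOKO, which in turn lay above SK-OV-3 and COV362. The step to IGROV-1 was narrow, with facing ends at 157.14 and 156.99 CPM. The interval of MinION replicate 2 (152 to 181) overlapped that of COV504. Relative to IGROV-1 PromethION, edgeR's quasi-likelihood test gave a log2 change of -0.78 ± 0.17 (SE) in SK-OV-3 (Benjamini-Hochberg adjusted p = 0.00757) and -0.79 ± 0.17 in COV362 (adjusted p = 0.00692). A rise of 0.53 ± 0.16 in OVMANA also passed (adjusted p = 0.0311), whereas OVKATE, the line of highest CPM, did not after TMM scaling (0.40 ± 0.16, adjusted p = 0.0653). Nor did COV504 (0.27 ± 0.16, edgeR adjusted p = 0.200).

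MCL1, a short-lived anti-apoptotic protein, showed another order. It stood at 210.2 CPM in SK-OV-3, 203 in COV362, 168 in COV504, 133 in OVMANA, 129 in OVKATE and 97.1 in OVTOKO. The IGROV-1 libraries gave 165 and 183 CPM on the PromethION and 142 and 179 on the MinION. In CPM, counting intervals separated OVTOKO from OVKATE, the next line above it, and OVMANA from COV504. These steps were not repeated with TMM library sizes. The test called 2 decreases, of 0.74 ± 0.18 (SE) on the log2 scale in OVKATE (edgeR adjusted p = 0.00955) and of 0.76 ± 0.19 in OVTOKO (edgeR adjusted p = 0.0142). After TMM scaling these 2 lines were thus alike, unlike in CPM.

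The ratio of BCL2L1 to MCL1 counts spanned a wide range over the lines. It was 1.72 in OVKATE (interval 1.48 to 2.02), 1.42 in OVMANA, 1.34 in OVTOKO and 1.03 in COV504, between 0.768 and 0.983 in the 4 IGROV-1 libraries, 0.443 in SK-OV-3, and lowest in COV362 at 0.376 (0.317 to 0.444). The 2 lowest lines lay below each IGROV-1 library without overlap of their intervals.

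The long reads split BCL2L1 into 3 transcripts, of which 2 encode Bcl-xL. BCL2L1-203 differs from BCL2L1-201 in its annotated 5′ end, which lies 301 nt downstream, and in its exons. It has 2 exons and 2578 nt, against 3 exons and 2610 nt for BCL2L1-201. The main difference between lines was in the balance of these 2 transcripts. Whether reads that stop short of the BCL2L1-201 start were counted as BCL2L1-203 was not tested. BCL2L1-203 made up 49.8% of BCL2L1 counts in OVKATE (95% Wilson interval 45.2 to 54.4), 32.6% in OVMANA, 29.1% in COV504, 10.8% in SK-OV-3, 7.17% in COV362 and 7.17% in OVTOKO. The IGROV-1 shares were 22.8% and 15.9% on the PromethION and 15.1% and 17.7% on the MinION. OVKATE was above all other libraries with no overlap of intervals, and the 3 lines of highest BCL2L1 level had the 3 highest shares. In the transcript usage test, in which the share of a transcript is compared within its gene, BCL2L1 was called in OVKATE (edgeR with Simes p per gene, adjusted p = 0.0119). The usage of BCL2L1-203 there was 0.95 higher on the log2 scale. It was the single member called of 7 tested in OVKATE, where 4.97% of all tested genes were called. The call was lost when any of the 4 IGROV-1 libraries was left out: omission of PromethION replicate 1 gave an adjusted p of 0.0592 and of replicate 2 one of 0.194, and omission of MinION replicate 1 gave 0.0872 and of replicate 2 gave 0.0995. In the other lines 0 of 7 members were called in this test, where the share of all genes called was 2.75% in OVMANA, 1.35% in OVTOKO, 2.07% in SK-OV-3, 2.98% in COV362 and 2.56% in COV504. On simulated counts, with 1 transcript of a gene changed in OVKATE, this test recovered 1.5% of log2 changes of 1. It recovered 45% of log2 changes of 2, so a missing call here or below does not show that shares were stable.

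**Figure D2:**
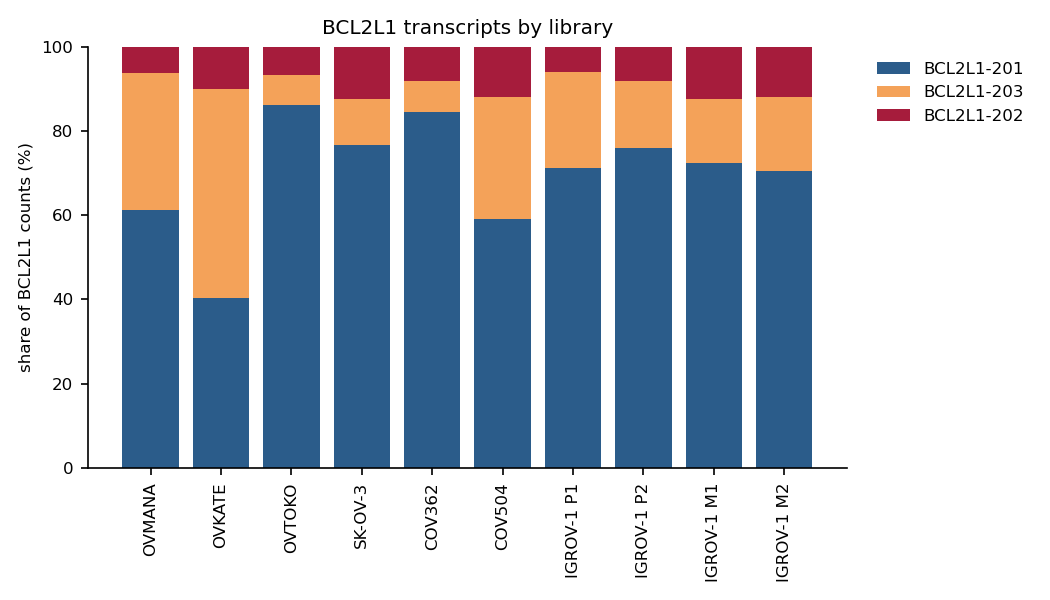
Share of BCL2L1 estimated counts (vertical axis, %) held by each of its 3 transcripts in 10 libraries (horizontal axis; P PromethION, M MinION). BCL2L1-203, with the downstream 5′ end, takes 49.8% in OVKATE and 7.17% in OVTOKO and COV362, while BCL2L1-202, the Bcl-xS form, stays between 5.97% and 12.5%.

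Bcl-xS was a minor form in each library. BCL2L1-202 held 6.12% of counts in OVMANA, 9.92% in OVKATE, 6.70% in OVTOKO, 12.4% in SK-OV-3, 8.20% in COV362 and 11.9% in COV504. In IGROV-1 the shares were 5.97% and 8.18% on the PromethION and 12.5% and 11.9% on the MinION. The values of the PromethION and MinION pairs did not overlap. The counting interval of PromethION replicate 1 (3.73 to 9.05) lay below both MinION intervals (9.89 to 15.6 and 9.44 to 14.9), and that of replicate 2 (5.72 to 11.7) overlapped both. The usage test between instruments did not call BCL2L1 (edgeR with Simes, adjusted p = 0.386). The Bcl-xL transcripts together gave 70.1 CPM in COV362 and 199.6 in OVKATE.

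MCL1-204, the form without the exon 1 stretch, was a large part of MCL1 in each line. It made up 46.3% in OVTOKO (interval 39.1 to 54.0), 43.3% in COV362 (39.2 to 47.6), 35.0% in SK-OV-3, 32.8% in OVMANA, 32.4% in OVKATE and 21.0% in COV504 (17.1 to 25.3). In IGROV-1 it was 31.4% and 31.9% on the PromethION, but 18.99% (15.8 to 22.6) and 33.4% (29.7 to 37.3) in the MinION replicates. The 2 MinION replicates thus differed beyond counting error. No line was called in the usage test for MCL1. MCL1-201, which skips exon 2 and encodes the 271-residue pro-apoptotic Mcl-1S, stayed under 1 count in each library. With MCL1-202 alone, the full-length form stood at 52.2 CPM in OVTOKO and 136.5 in SK-OV-3.

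**Figure D3:**
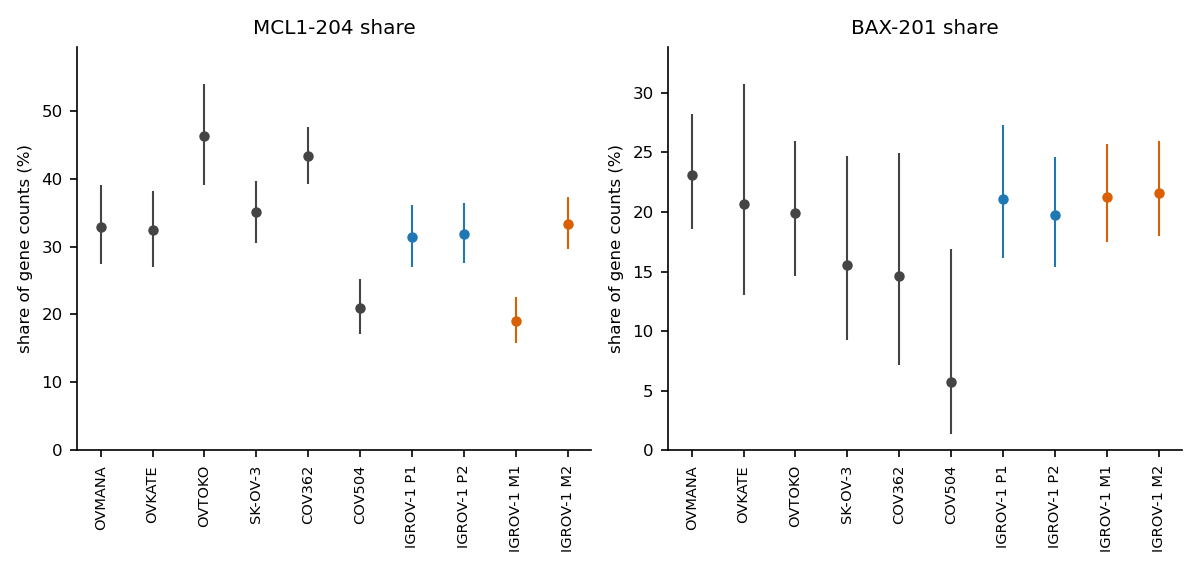
Left, share of MCL1 counts held by MCL1-204; right, share of BAX counts held by BAX-201 (vertical axes, %, starting at 0), in 10 libraries (horizontal axes) with 95% Wilson intervals as bars; blue marks IGROV-1 PromethION (P) and orange IGROV-1 MinION (M). MCL1-204 ranges from 18.99% to 46.3% and differs between the MinION replicates; BAX-201 is 19.7% to 21.6% in the 4 IGROV-1 libraries and lowest, at 5.76%, in COV504.

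BAX, the effector that moves from the cytosol to mitochondria during apoptosis, divided the lines. It was 155 CPM in OVMANA, 109 in OVTOKO, 42.5 in SK-OV-3, 38.6 in OVKATE, 22.7 in COV362 and 17.4 in COV504. The IGROV-1 libraries gave 86.7 and 121 CPM on the PromethION and 104 and 127 on the MinION. In CPM, OVMANA was separated from OVTOKO and IGROV-1, these from SK-OV-3 and OVKATE, and these from COV362 and COV504. The last step was narrow: the OVKATE interval began at 30.5 CPM and that of COV362 ended at 29.4. It was not repeated with TMM sizes, whose factors were 1.19 in OVKATE and 0.939 in COV362. Relative to IGROV-1, edgeR gave a log2 change of -2.65 ± 0.29 (SE) in COV504 (adjusted p = 0.000209), -2.15 ± 0.27 in COV362 (adjusted p = 0.000506), -1.73 ± 0.26 in OVKATE (adjusted p = 0.000887) and -1.51 ± 0.26 in SK-OV-3 (adjusted p = 0.00205). In OVMANA BAX was 0.65 ± 0.22 higher (edgeR adjusted p = 0.0485).

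The balance of BAX forms moved little where BAX was well measured. BAX-201, the beta transcript, held 23.1% of counts in OVMANA, 20.7% in OVKATE, 19.9% in OVTOKO, 15.5% in SK-OV-3, 14.6% in COV362 and 5.76% in COV504, and 19.7% to 21.6% in the 4 IGROV-1 libraries. COV504 had 39 BAX counts in all, and its interval of 1.42 to 16.9 overlapped those of OVKATE, OVTOKO, SK-OV-3, COV362 and both IGROV-1 PromethION libraries. The usage test called BAX in none of the comparisons. BAX-202, the alpha transcript, held 76.5% (OVMANA) to 94.2% (COV504) of the counts, with 119 CPM in OVMANA and 16.3 in COV504.

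BAK1, the effector resident in the mitochondrial outer membrane, was highest in OVMANA. It stood at 35.8 CPM in OVMANA, 25.8 in SK-OV-3, 19.6 in COV504, 16.3 in OVKATE, 16.1 in COV362, 13.9 in OVTOKO and 10.7, 12.0, 13.1 and 14.8 in the IGROV-1 libraries. No neighbouring lines in the order were separated. Against IGROV-1, BAK1 was higher in OVMANA (log2 change 1.71 ± 0.26, edgeR adjusted p = 0.00139) and SK-OV-3 (0.95 ± 0.27, edgeR adjusted p = 0.0226). The ratio of BAX to BAK1 counts was 7.92 to 10.04 in IGROV-1, 7.83 in OVTOKO, 4.34 in OVMANA, 2.36 in OVKATE, 1.65 in SK-OV-3, 1.41 in COV362 and 0.886 in COV504 (0.561 to 1.40). BAK1-202, which encodes the 211-residue protein, held at least 99.4% of the counts.

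Of the BH3-only members, PMAIP1 showed the widest range, also among the 9 members with counts in each line. PMAIP1 encodes NOXA, which binds MCL1 and promotes its degradation. It reached 155 CPM in SK-OV-3, 42.7 in COV504, 34.9 in COV362, 26.6 in OVTOKO, 14.96 in OVMANA and 9.89 in OVKATE, and 16.7, 19.8, 13.6 and 12.0 in the IGROV-1 libraries. SK-OV-3 was separated from all others and no other neighbours were. Compared with IGROV-1, PMAIP1 was 2.86 ± 0.20 (SE) higher on the log2 scale in SK-OV-3 (edgeR adjusted p = 2.65e-05), 1.15 ± 0.23 in COV504 (edgeR adjusted p = 0.00475) and 0.98 ± 0.24 in COV362 (edgeR adjusted p = 0.0111). In OVKATE it fell by 1.18 ± 0.32 (edgeR adjusted p = 0.0147). The ratio of PMAIP1 to MCL1 counts was 0.737 in SK-OV-3, against 0.0675 to 0.274 in the other libraries. PMAIP1-202, which encodes the 54-residue NOXA, held at least 97.3% of the counts.

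BAD, a sensitizer that binds BCL2 and Bcl-xL, was highest in OVKATE and COV504. It stood at 147 CPM in OVKATE, 97.9 in COV504, 64.2 in OVTOKO, 57.7 in SK-OV-3, 53.7 in COV362 and 42.7 in OVMANA. The IGROV-1 libraries gave 41.9 and 36.1 CPM on the PromethION and 58.1 and 53.8 on the MinION. OVKATE was separated from COV504, and COV504 from the remaining lines. The log2 change against IGROV-1 was 1.61 ± 0.19 (SE) in OVKATE (edgeR adjusted p = 0.000211), 1.25 ± 0.19 in COV504 (edgeR adjusted p = 0.00116) and 0.80 ± 0.21 in OVTOKO (edgeR adjusted p = 0.0185). Both main transcripts, BAD-201 and BAD-203, encode the same 168-residue protein, and BAD-203 made up 23.8% to 43.7% of the counts.

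BID, which links death receptors to mitochondria after cleavage by caspase-8, was also highest in OVKATE. Its level was 117 CPM in OVKATE, 79.2 in OVTOKO, 50.6 in SK-OV-3, 50.3 in COV504, 40.7 in COV362 and 25.1 in OVMANA, and 36.3, 56.3, 38.2 and 50.1 in the IGROV-1 libraries. OVKATE and OVTOKO were each separated from the next line. They were also called against IGROV-1, with log2 changes of 1.03 ± 0.25 (edgeR adjusted p = 0.0101) and 0.85 ± 0.27 (edgeR adjusted p = 0.0406). Transcripts encoding the 195-residue BID held 53.3% (COV362) to 84.0% (OVMANA) of the counts, and those of the 99-residue short form 10.4% (OVKATE) to 32.5% (COV362).

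BCL2L11, which encodes BIM, a direct activator of the effectors, was lowest in OVTOKO. It had 54.4 CPM in OVKATE, 36.8 in COV362, 30.5 in OVMANA, 23.8 in SK-OV-3, 23.6 in COV504 and 9.25 in OVTOKO, and 32.0, 31.4, 24.3 and 27.2 in the IGROV-1 libraries. Only the step from COV504 to OVTOKO separated neighbours, and only OVTOKO was called against IGROV-1 (log2 change -1.69 ± 0.29, edgeR adjusted p = 0.00286). BCL2L11-206, the transcript of the long BIM-EL form, held 47.0% (SK-OV-3) to 93.2% (OVTOKO) of the counts, and SK-OV-3 had 32.3% in BCL2L11-221 (169 residues). The share in SK-OV-3 rested on 47 BCL2L11 counts (95% Wilson interval 33.3 to 60.8) and that in OVTOKO on 16 (71.7 to 98.9). The IGROV-1 replicates alone spread from 65.8% to 86.2% for BCL2L11-206, and the usage test called BCL2L11 in no line.

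BCL2L13, an outer membrane protein with a role in mitophagy, varied least in CPM among the 9 members with counts in each line. It stood at 42.8 CPM in OVTOKO, 39.0 in SK-OV-3, 35.3 in OVMANA, 25.4 in COV504, 23.9 in COV362 and 21.3 in OVKATE, and 19.2, 29.6, 24.3 and 26.9 in the IGROV-1 libraries. The counting interval of its highest to lowest ratio included the MCL1 ratio of 2.16, so the 2 members were not separated in range. With TMM library sizes the BCL2L13 ratio of OVTOKO to OVKATE was 2.62, and the place as least variable was not shown to hold there. Only OVTOKO was called higher than IGROV-1 (log2 change 0.88 ± 0.28, edgeR adjusted p = 0.0406). Its transcript shares were not stable between replicates: BCL2L13-203 held 9.61% and 63.5% in the 2 PromethION replicates of IGROV-1 and 12.4% and 33.9% on the MinION, from 45 to 89 BCL2L13 counts a library. The transcript of the 485-residue protein, BCL2L13-201, held at most 5.49%.

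Read over the whole family, the set of members called against IGROV-1 differed between lines, with overlaps. The members called in COV362 were all called in SK-OV-3 too, in the same directions. In OVMANA 4 of 10 members were called by edgeR, where 35.4% of all genes tested were called (18.9% higher, 16.5% lower): BCL2L1, BAX and BAK1 were higher and BCL2 lower. In OVKATE 6 were called, against 49.2% of all genes (26.8% higher, 22.4% lower), with BAD and BID higher and BCL2, MCL1, BAX and PMAIP1 lower. In OVTOKO 5 were called, against 34.1% (18.2% higher, 15.9% lower), with BAD, BID and BCL2L13 higher and MCL1 and BCL2L11 lower. The share of members called was above the background in these 3 lines and below it in the other 3, a difference over 10 genes that was not tested. SK-OV-3 had 4 called, against 41.8% (22% higher, 19.8% lower), with PMAIP1 and BAK1 higher and BCL2L1 and BAX lower. COV362 had 3, against 42.5% (23.7% higher, 18.8% lower), with PMAIP1 higher and BCL2L1 and BAX lower. COV504 had 3, against 43.5% (24% higher, 19.6% lower), with BAD and PMAIP1 higher and BAX lower. The test for any difference over the 7 lines called all 10 members, where 81.3% of genes were called. The 6 comparisons share the IGROV-1 libraries, and each lone library was assumed to vary like the IGROV-1 replicates.

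**Figure D4:**
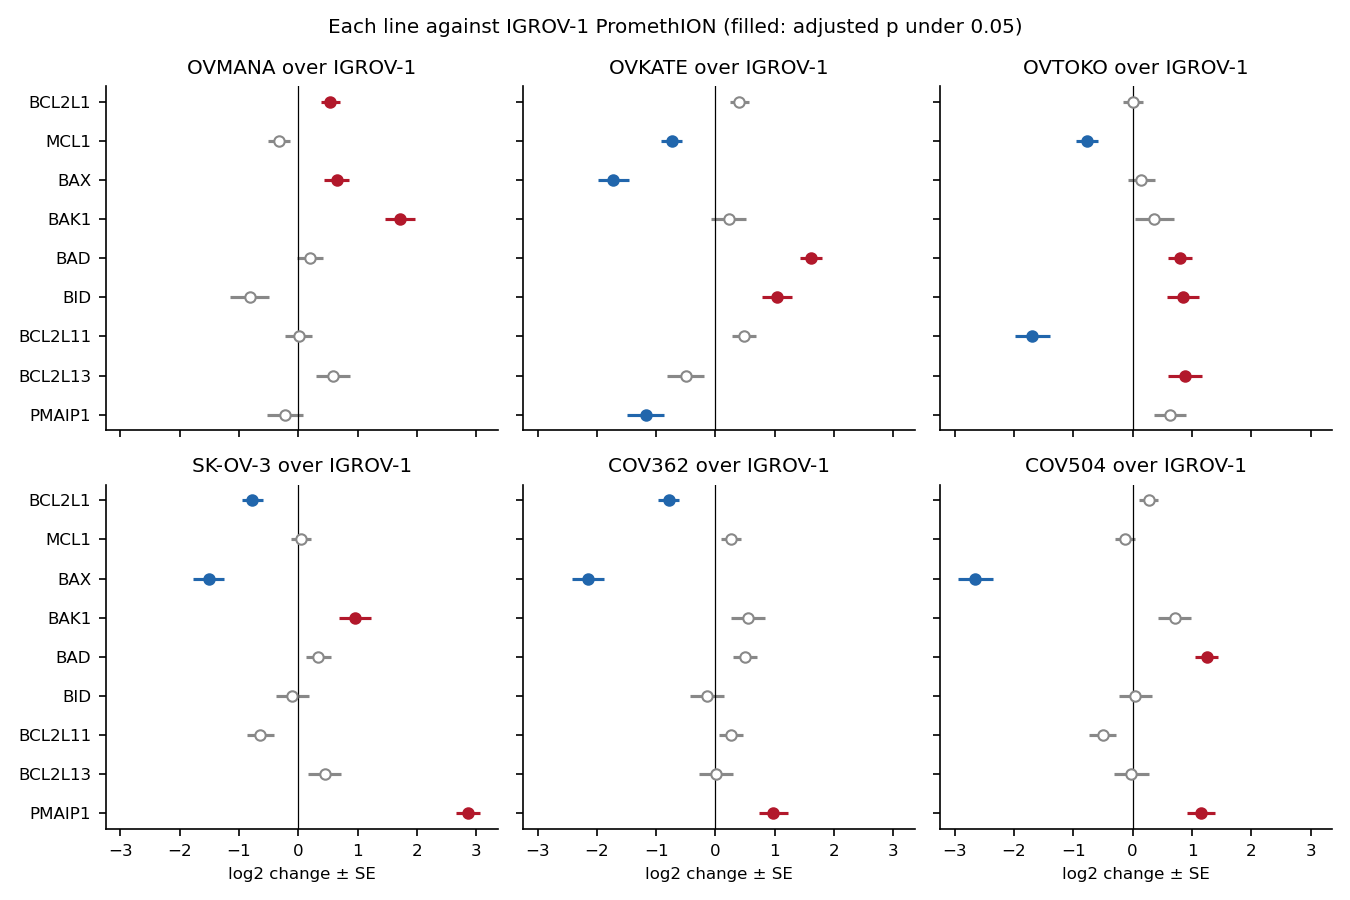
Log2 change of each member in each of 6 lines over IGROV-1 PromethION (horizontal axis; bars are SE; vertical axis lists the genes), with filled points for adjusted p under 0.05, red higher and blue lower; BCL2 is left out because OVMANA held no counts of it. BAX lies left of 0 in OVKATE, SK-OV-3, COV362 and COV504, from -1.51 to -2.65, and PMAIP1 reaches 2.86 in SK-OV-3.

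Of these 25 calls, 6 held under each alternative tried, DESeq2 included: BAX in OVKATE, SK-OV-3, COV362 and COV504, BAD in OVKATE and PMAIP1 in SK-OV-3. A further 10 were lost with DESeq2 alone, and none of the 25 changed direction. All 25 remained called without mitochondrial genes. Leaving out a single IGROV-1 library ended 7 calls. Without PromethION replicate 1, BCL2L1 in OVMANA (log2 change 0.48), BAX in OVMANA (0.42), BID in OVTOKO (0.57), BCL2L13 in OVTOKO (0.60) and BAK1 in SK-OV-3 (0.87) no longer passed. Without PromethION replicate 2 the same was true of BCL2L1 in OVMANA (0.59) and BAD in OVTOKO (0.70). Without MinION replicate 1, all 7 were lost: BCL2L1 (0.53) and BAX (0.64) in OVMANA, BID in OVKATE (1.03), BAD (0.80), BID (0.85) and BCL2L13 (0.88) in OVTOKO and BAK1 in SK-OV-3 (0.95). Without MinION replicate 2, BAX in OVMANA (0.68), BID (0.89) and BCL2L13 (0.92) in OVTOKO were lost.

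Between the instruments, no member passed the test in IGROV-1 in the fit without a replicate term. edgeR called 0 of 10 members, against 0.817% of 10041 genes tested (0.11% higher and 0.707% lower on the MinION). An unadjusted p under 0.05 was reached by 2 members. BAD had a log2 change of MinION over PromethION of 0.48 ± 0.16 (edgeR adjusted p = 0.203) and PMAIP1 of -0.54 ± 0.23 (edgeR adjusted p = 0.292). With a block for replicate number BAD was called (edgeR adjusted p = 0.00318), so the outcome for BAD depended on the fit. For both genes the 2 libraries of one instrument did not overlap those of the other. DESeq2 also called 0 members. The other 8 members had log2 changes between -0.34 (BCL2L11) and 0.31 (BCL2). In the usage test 0 of 6 members tested were called, where 5.98% of genes were.

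Outside the 10 members, genes of related pathways were read from lists. CDKN1A, which encodes the cell cycle inhibitor p21, followed the division seen in BAX. It stood at 149.6 CPM in OVMANA, 271 in OVTOKO and 353 in IGROV-1, and at 21.8 in SK-OV-3, 17.3 in OVKATE, 13.7 in COV362 and 11.6 in COV504. GDF15, a stress cytokine, ranged from 4.95 CPM in OVKATE to 1608 in OVMANA, and ZMAT3, an RNA-binding protein, from 0.89 in COV504 to 41.1 in OVMANA. Neither kept the division: GDF15 was 140 CPM in SK-OV-3 against 85.6 in OVTOKO. ZMAT3 was 24.2 CPM in OVKATE against 18.4 in IGROV-1 PromethION.

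**Figure D5:**
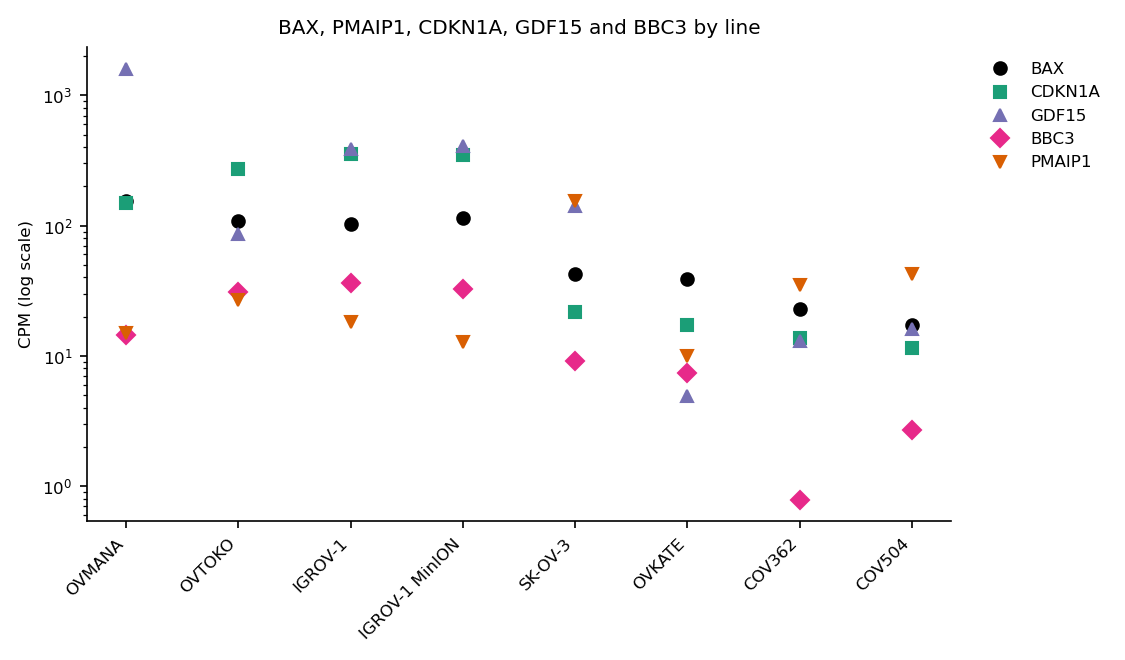
CPM (log axis) of BAX, PMAIP1, CDKN1A, GDF15 and BBC3 in 7 lines (horizontal axis, ordered by BAX; IGROV-1 as the mean of 2 PromethION and separately of 2 MinION libraries); symbols are genes and are to be compared along a gene. CDKN1A is 149.6 CPM or more in the 3 lines on the left and 21.8 CPM or less in the other 4, while PMAIP1 peaks at 155 CPM in SK-OV-3.

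Of the other BCL2 family genes (10 of 13 tested), 4 to 7 were called per line, where 34.1% (OVTOKO) to 49.2% (OVKATE) of all genes were. BBC3, which encodes the BH3-only protein PUMA, was 36.4 CPM in IGROV-1, 30.6 in OVTOKO, 14.4 in OVMANA, 9.12 in SK-OV-3, 7.42 in OVKATE, 2.67 in COV504 and 0.784 in COV362. It was called lower than IGROV-1 in each line but OVTOKO, with a log2 change of -5.41 ± 0.52 in COV362 (edgeR adjusted p = 0.000126). BIK, another BH3-only gene, reached 83.4 CPM in OVMANA against 1.71 in IGROV-1, and BMF 29.4 in COV362 against 2.57 in IGROV-1. BNIP3, a hypoxia-induced mitophagy receptor, ranged from 47.0 CPM in OVKATE to 353 in OVTOKO.

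Downstream of the mitochondria, the list of released factors, apoptosome and caspases (12 of 13 tested) had 2 to 7 genes called per line in mixed directions. Over all genes the share called was 34.1% to 49.2% per line. CYCS, cytochrome c, was 761 CPM in OVKATE and 114.5 in SK-OV-3. CASP2 ranged from 10.98 CPM in OVTOKO to 50.5 in COV362, and CASP10 from 1.07 in IGROV-1 to 19.3 in OVKATE. Among the inhibitor of apoptosis genes (5 of 7 tested), 1 to 4 were called per line, against 34.1% to 49.2% of all genes. BIRC3 was 48.6 CPM in OVMANA and 0.506 in SK-OV-3, BIRC5 (survivin) 365 in OVKATE and 101.5 in IGROV-1, XIAP 105.8 in OVMANA and 37.5 in IGROV-1, and BIRC2 90.7 in SK-OV-3 and 21.4 in OVMANA.

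Of 9 tested genes of the death receptor pathway, which BID connects to mitochondria, 4 to 6 were called against IGROV-1 per line, where 34.1% (OVTOKO) to 49.2% (OVKATE) of all genes were. Those called were all higher in OVMANA (4) and OVTOKO (6), 4 higher and 2 lower in OVKATE, 5 and 1 in COV362, and 4 and 1 in both COV504 and SK-OV-3. TNFSF10, the ligand TRAIL, had no counts in IGROV-1 PromethION and 19.1 CPM in OVTOKO to 316 in COV504, at least 29.7-fold and 492-fold higher than the floor of 3 counts over both libraries. Its receptor gene TNFRSF10A had no counts there either, and 3.55 to 12.7 CPM in the other lines. FAS ranged from 5.93 CPM in OVKATE to 62.0 in OVMANA, and TNFRSF1A from 31.3 in IGROV-1 PromethION to 179 in OVTOKO.

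In the list of partners and regulators of BCL2 proteins (11 tested), 4 to 8 were called per line, against 34.1% to 49.2% of all genes. FBXW7, a ubiquitin ligase subunit that targets MCL1, was 37.7 CPM in IGROV-1 and 34.2 in OVMANA, and 5.34 to 13.3 in the other 5 lines. BECN1, which BCL2 binds in autophagy control, was 12.1 CPM in COV362 and 54.2 in SK-OV-3. BAG1 was 25.1 CPM in OVMANA and 81.5 in SK-OV-3, and TPT1 1787 in OVKATE and 6640 in OVTOKO.

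Genes whose levels followed 4 of the members most closely over the 7 lines were ranked by Pearson correlation of log2(CPM + 1) among 8813 genes, as a description over 7 points that share the same libraries. For BCL2L1 the first was LNPEP (r = 0.978), then SCAMP2 and CDR2L, and for MCL1 FBXO38 (r = 0.981), TBP and ABL1. For BAX it was CD24 (r = 0.967), at 152 CPM in COV504 and 3103 in OVMANA, then PRKAB1 and TMEM144. For PMAIP1 it was CRTC3 (r = 0.979), then PHF3 and SMAD7, the last at 1.48 CPM in OVKATE and 35.5 in SK-OV-3.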

How the data were processed

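Per the labels, column-purified RNA went into ligation libraries with end repair lengthened to 30 min. Per the submitters' processing notes, minimap2 2.24-r1122 and GRCh38 were used. Quantification tool, settings, annotation release and whether counting used strand were not given in the sources used here. For each library the authors deposited estimated counts per transcript, which need not be whole. The deposited TPM equals the CPM, the count scaled to a library total of 1000000, to within 5.64e-11 and is not divided by length. All 60 member transcripts matched GENCODE 29 in chromosome, start, end and strand.

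Estimated counts were summed per gene, rounded, and tested with edgeR 4.0.16 (R 4.3.3; quasi-likelihood, TMM, expression filter by group, Benjamini-Hochberg over all genes tested, two-sided, calls at adjusted p under 0.05). Instruments were compared in the 4 IGROV-1 libraries. Each line was set against IGROV-1 PromethION within 1 fit of all 10 libraries, whose 2 residual degrees of freedom come from IGROV-1 (coefficient of variation 11.7%). Transcript usage was tested with edgeR's diffSpliceDGE and Simes p per gene. Tests were tried on simulated data. For OVTOKO against IGROV-1, the gene test recovered 39.5% of log2 changes of 1 and 89% of log2 changes of 2. Of its calls there, 7.06% and 1.11% were false. The instrument test recovered 71% and 99%, with 6.58% and 5.26% false. An uncalled member is therefore not shown to be equal between lines. Replicates of IGROV-1 differed beyond counting noise (chi-square per degree of freedom 4.36 and 6.73). CPM intervals are 95% exact Poisson, share intervals 95% Wilson, and ratio intervals exact binomial; all cover counting error only. Neighbouring lines were called separated where their CPM intervals did not overlap, with IGROV-1 as the range over its PromethION replicates' intervals. These CPM values were not TMM-scaled. TMM factors ran from 0.916 (OVTOKO) to 1.19 (OVKATE), and the separations were not repeated with them.

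Named transcripts had at least 5% of a gene with 50 or more counts in a library (31 of 60). Named pathway genes were up to 4 per list with the widest log2(CPM + 1) range and 10 CPM or more in a line, and 3 like genes were taken for each of 4 members. BCL2L2, DIABLO and CD68 occur only in entries that join several genes and were not used. Members and lists were chosen with earlier results of these data known. Alternatives were RLE scaling, DESeq2 1.42.0, no filter, other reference and library sets, and leaving out replicates. Results of 1 pathway list and of 2 genes are not reported here.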

Additional observations from a re-analysis of the deposited data

How the results depend on the processing

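The number of members called per line depended most on the tool. With DESeq2 the counts were 0 in OVMANA, 2 in OVKATE, 0 in OVTOKO, 2 in SK-OV-3, 1 in COV362 and 1 in COV504, and 4 for any line. Of 13030 genes DESeq2 called 1442, 2095, 1298, 1672, 1565 and 1764 in these lines in the same order, and 3788 for any line. Without an expression filter 1 member was called in OVMANA and 3 in OVTOKO, against 3905 and 3701 of 20740 genes. With only the 8 PromethION libraries 3 were called in OVTOKO, against 3498 of 12868 genes. The cause of these differences was not tested. Leaving out 1 IGROV-1 library gave 2 to 4 members in OVMANA, 5 to 6 in OVKATE, 2 to 5 in OVTOKO, 3 to 4 in SK-OV-3, 3 in COV362, 3 in COV504 and 8 to 10 for any line, and 0 in the usage test of OVKATE. With TMM library sizes and the same lines, the ratio of OVKATE to COV362 was 2.28 for BCL2L1 and that of SK-OV-3 to OVTOKO 1.75 for MCL1. The ratio of OVKATE to IGROV-1 was 3.06 for BAD. These lay outside their counting intervals. The highest line became OVMANA for BCL2L1 and COV362 for MCL1, so the ratio of highest to lowest line was larger there than the ratio given. The BCL2L13 ratio of OVTOKO to OVKATE was 2.62, inside its interval and above the BCL2L1 and MCL1 ratios given here.

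Replicate numbers 1 and 2 are shared by the instruments, but the labels do not say that a number marks a shared culture or batch. Deviations from the group means correlated at 0.37 between equal numbers over 10041 genes. KRT18 stood at 263 and 1041 CPM in PromethION replicates 1 and 2 and at 244 and 1080 CPM in MinION replicates 1 and 2. Whether equal numbers mark shared material was not tested. With a replicate block the instrument test called 1978 genes instead of 82, and 1 member, BAD, which was higher on the MinION; the usage test still called 0 members. Over all genes the instrument count was 15 without a filter, 49 in the fit of all 10 libraries and 4 to 209 with 1 library left out. For each line DESeq2 called fewer genes, from 1298 against edgeR's 4443 in OVTOKO to 2095 against 6405 in OVKATE. Usage calls over all genes fell to between 13 (OVTOKO) and 71 (OVKATE) with 1 library left out, and without joined entries to 86 in OVMANA and 37 in OVTOKO; with a 10 CPM minimum the instrument count was 115. Between instruments, leaving out 1 library moved the log2 change of the uncalled members BCL2 between -0.38 (without MinION replicate 2) and 0.80, BAX between -0.11 (without PromethION replicate 1) and 0.36, BCL2L13 between -0.26 (without PromethION replicate 1) and 0.37, and BID between -0.40 and 0.23 (without PromethION replicate 2; 0.03 without MinION replicate 1), so their directions reversed.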
